A study of Mus musculus with 8 samples.

Results

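The genes described here are 10 markers of the choroid plexus epithelium, measured in hippocampal RNA of Ts1Cje and wild-type mice: Clic6, Kcne2, Ttr, Folr1, Kl, Aqp1, Slc4a5, Sostdc1, Otx2 and Enpp2. They were found as the non-control array probes whose RefSeq accession maps to one of these symbols, and all 10 were present among the 20660 symbols so mapped. Clic6 and Kcne2 lie on chromosome 16 in the segment of which Ts1Cje mice carry 3 copies. The other 8 genes lie elsewhere and have 2 copies in both genotypes. The mice were 3 months old and labelled C57BL6/J. The 4 Ts1Cje arrays came from mice with an extra distal piece of chromosome 16, in which 1 copy of Sod1 is disrupted, attached to a chromosome 12 that has lost its distal end. The 4 wild-type arrays came from disomic littermates. No treatment was given in the labels, and the sex of the mice is not stated there.

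The choroid plexus is a vascular tuft covered by a secretory epithelium that hangs in the ventricles, beside the hippocampus, and makes most of the cerebrospinal fluid. Its cells pump sodium, chloride and bicarbonate into the ventricle, water follows through aquaporins, and carrier and receptor proteins deliver hormones and vitamins to the brain. Strands of plexus can stay attached to the hippocampus at dissection and add their transcripts to the extract. In such bulk RNA, fewer cells of a type and less RNA per cell cannot be told apart.

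The upstream sequence of the triplicated gene Kcne2 and of Otx2, the homeobox gene that directs choroid plexus development, is shown because their log2 fold changes, although not past the threshold, had opposite signs. The windows are the 250 bases before an annotated transcript start in RefSeq on GRCm38.p6, and capitals mark the OTX-type homeodomain motif TAATCC or, on the other strand, GGATTA. Kcne2 has 2 annotated starts on the plus strand of chromosome 16, with windows at chr16:92292139-92292388 and chr16:92295366-92295615. The Otx2 window is the one of its 4 that holds the motif, at chr14:48665110-48665359 on the minus strand, with the motif 211 bases before the start.
Kcne2, window 1: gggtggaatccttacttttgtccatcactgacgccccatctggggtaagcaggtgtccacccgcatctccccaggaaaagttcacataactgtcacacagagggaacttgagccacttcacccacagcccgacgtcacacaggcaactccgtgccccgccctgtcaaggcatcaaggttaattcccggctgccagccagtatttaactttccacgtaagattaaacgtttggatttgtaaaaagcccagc
Kcne2, window 2: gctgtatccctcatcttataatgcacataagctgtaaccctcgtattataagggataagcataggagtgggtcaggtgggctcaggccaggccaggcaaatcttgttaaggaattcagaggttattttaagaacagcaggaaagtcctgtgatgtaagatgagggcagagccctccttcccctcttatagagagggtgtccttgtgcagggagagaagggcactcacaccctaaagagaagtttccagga
Otx2, window 3: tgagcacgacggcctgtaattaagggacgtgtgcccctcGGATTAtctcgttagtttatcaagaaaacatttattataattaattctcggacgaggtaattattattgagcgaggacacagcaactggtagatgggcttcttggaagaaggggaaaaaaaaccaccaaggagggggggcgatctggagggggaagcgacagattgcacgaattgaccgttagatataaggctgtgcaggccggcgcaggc
Neither Kcne2 window holds these letters. Of the 10 genes, 5 had windows that were counted (Kcne2, Kl, Aqp1, Slc4a5 and Otx2), 9 in all, and 1 window held the motif. No window of Ttr, Folr1, Clic6, Sostdc1 or Enpp2 was counted, so these numbers do not cover every member. Among all 32851 windows of this length, with no chromosome left out, 6.252% held it. A match of letters is a description of the sequence and not a binding site.

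Levels are log2 signals with the 75th percentile of their own array set to 0, so that a difference of 1 is a factor of 2. A level is compared between arrays only within a probe, because probes differ in how brightly they report the same amount of RNA. Between 59.9% and 63.1% of probes stood well above background on an array, and Pearson's r between any pair of arrays, across the tested features, lay between 0.992 and 0.996; features are not independent replicates. Differences between genotypes were tested with limma over 24025 features, and a feature was called at a Benjamini-Hochberg adjusted p under 0.05.

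Among the 9 members that could be tested, 0 were called, where 47 of all 24025 features were (0.196%). At an unadjusted p under 0.05 stood 4 of the 9 (Clic6, Kcne2, Otx2 and Sostdc1), against 2097 of all features. The median log2 fold change of the 9 was -0.02, against -0.0072 over all features. The arrays of the genotypes overlapped for every tested member, whereas they did not overlap for 6.12% of all features. Slc4a5 was not tested: its brighter probe stood above background on 1 Ts1Cje and 2 wild-type arrays, and its other probe on 0 arrays of either genotype.

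Clic6, on chromosome 16, encodes a member of the chloride intracellular channel family found in fluid-secreting epithelia. Its signal was -1.55, -2.01, -1.94 and -1.79 in Ts1Cje replicates 1 to 4, against -2.63, -3.19, -1.94 and -2.50 in wild-type replicates 1 to 4. Wild-type replicates 1, 2 and 4 lay below every Ts1Cje array, and wild-type replicate 3 lay among the lower Ts1Cje values. The means were -1.82 ± 0.21 in Ts1Cje and -2.57 ± 0.51 in wild type (SD, n = 4 each). The log2 fold change was 0.74 (SE 0.24, 95% interval 0.19 to 1.30), or 1.67-fold, and was not past the threshold (limma adjusted p = 0.446). The interval is that of the single gene, unadjusted for the number of features, and it held 0.58, the log2 of 3 copies over 2.

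Kcne2, its neighbour on chromosome 16, encodes a single-pass subunit that alters the gating of potassium channels at the apical face of the epithelium. Its signal was -4.28, -4.12, -4.40 and -3.73 in the Ts1Cje replicates, against -4.96, -5.19, -4.21 and -4.74 in the wild-type replicates. Again wild-type replicate 3 was the only wild-type array inside the Ts1Cje range. The log2 fold change was 0.64 (SE 0.22, 95% interval 0.13 to 1.15), or 1.56-fold, with a limma adjusted p of 0.486. Kcne2 was dim, with 28.8 to 43.2 intensity units in Ts1Cje and 15.7 to 34.4 in wild type, and it stood above background on 4 Ts1Cje and 3 wild-type arrays. It was thus kept for testing through the Ts1Cje arrays alone, so that its fold and interval, here and in the comparisons with other genes, are set against a wild-type group partly at background. With normexp background correction the fold changes shrank to 0.46 for Clic6 and 0.24 for Kcne2.

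Ttr, on chromosome 18, encodes transthyretin, the carrier of thyroxine and of retinol-binding protein that the plexus secretes in quantity. Its signal was 1.42, 0.83, 0.42 and 0.87 in the Ts1Cje replicates, against 0.49, -0.17, 1.99 and 1.31 in the wild-type replicates. The wild-type arrays spanned the whole range, which covered a factor of 4.48 over the 8 arrays. The SD of Ttr over the 8 arrays, 0.67, lay at percentile 98.6 of all features. Its log2 fold change was -0.02 (SE 0.44, limma adjusted p = 0.992), with a 95% interval of -1.04 to 1.01. It stood at -0.38 without wild-type replicate 2 and at 0.35 without wild-type replicate 3.

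**Figure D1:**
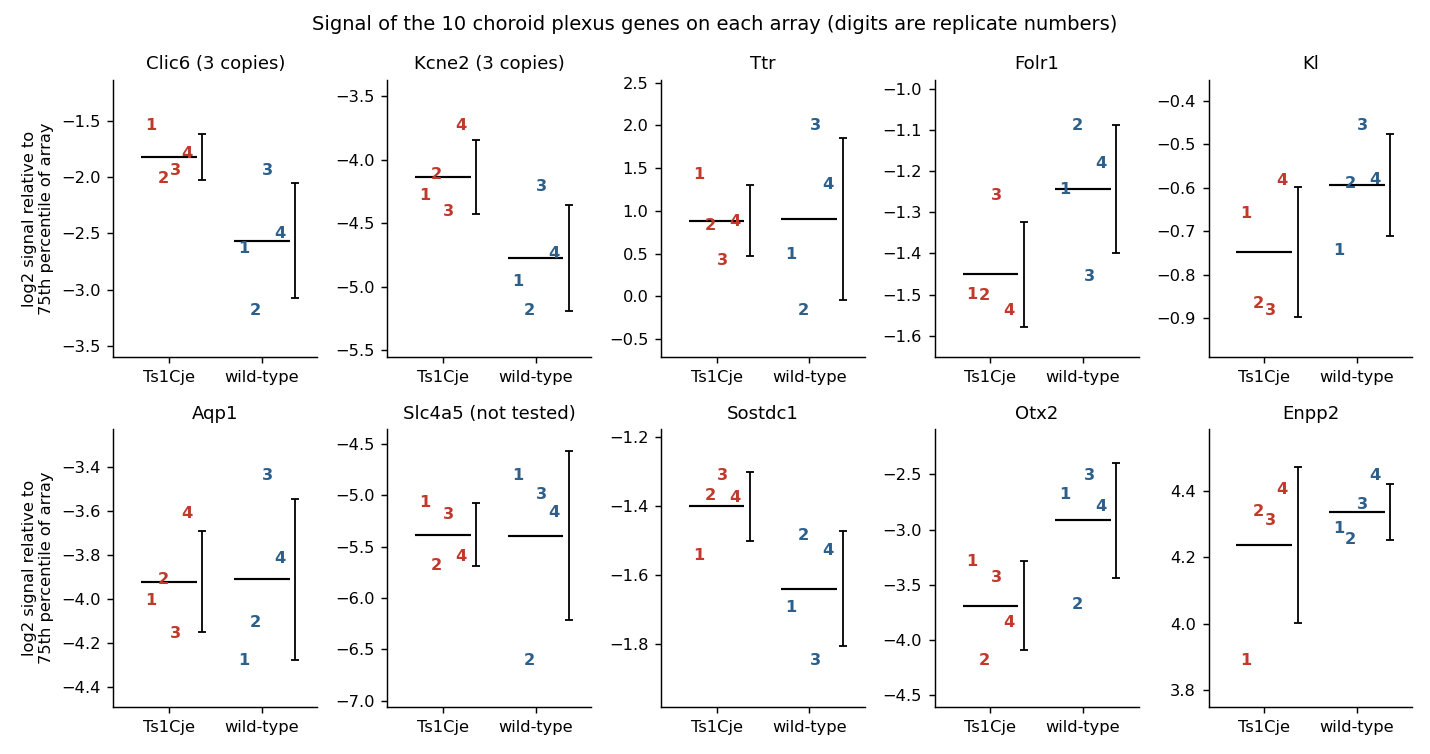
Log2 signal with the array's 75th percentile set to 0 (vertical axis, a separate scale in each panel) for the 10 choroid plexus genes in Ts1Cje and wild-type mice. Digits give each array at its replicate number, horizontal lines the group mean and bars 1 SD on either side of it (n = 4). Wild-type replicate 3 is the highest wild-type array for Clic6, Kcne2 and Ttr, and Ttr spans 2.16 log2 units over the 8 arrays.

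Within the wild-type mice, Ttr, Clic6 and Kcne2 put the arrays in one order, with replicate 3 highest, then 4, then 1, and replicate 2 lowest. Aqp1 and Kl kept replicates 3 and 4 on top. In the Ts1Cje mice Ttr and Clic6 were both highest in replicate 1 and next in replicate 4, whereas Kcne2 was highest in replicate 4. Over the 8 arrays, Pearson's r with Ttr was 0.73 for Aqp1, 0.63 for Clic6, 0.52 for Kcne2, 0.49 for Otx2 and 0.47 for Kl. It was -0.06 for Enpp2, -0.53 for Sostdc1 and -0.58 for Folr1. These are descriptions over 8 arrays that share 1 slide and hold the genotype difference within them. The 9 tested markers thus did not vary as 1 group, and Folr1, Sostdc1 and Enpp2 did not follow Ttr.

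Aqp1, on chromosome 6, encodes the apical water channel of the epithelium. Its signal was -4.01, -3.91, -4.16 and -3.61 in the Ts1Cje replicates, against -4.28, -4.11, -3.44 and -3.82 in the wild-type replicates. The wild-type arrays lay on both sides of the Ts1Cje arrays, with a log2 fold change of -0.01 (SE 0.19, limma adjusted p = 0.989), or 0.15 without wild-type replicate 3. Slc4a5, on the same chromosome, encodes a sodium bicarbonate cotransporter of the apical membrane. Its brighter probe gave -5.07, -5.68, -5.18 and -5.60 in the Ts1Cje replicates and -4.81, -6.61, -5.00 and -5.16 in the wild-type replicates, mostly within background, and no fold is given.

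Folr1, on chromosome 7, encodes folate receptor alpha, which carries folate across the plexus into the cerebrospinal fluid. Its signal was -1.50, -1.50, -1.26 and -1.54 in the Ts1Cje replicates, against -1.24, -1.09, -1.46 and -1.18 in the wild-type replicates. Ts1Cje replicates 1, 2 and 4 lay below every wild-type array, and Ts1Cje replicate 3 lay among the wild-type values, at a log2 fold change of -0.21 (SE 0.09, limma adjusted p = 0.587). The second Folr1 probe was above background on 0 arrays. Within wild type Folr1 was highest in replicate 2 and lowest in replicate 3, the arrays with the lowest and the highest Ttr.

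Kl, on chromosome 5, encodes klotho, the co-receptor for fibroblast growth factor 23. Its signal lay between -0.88 and -0.58 in Ts1Cje and between -0.75 and -0.46 in wild type, with a log2 fold change of -0.15 (SE 0.09, limma adjusted p = 0.650). Sostdc1, on chromosome 12 well proximal to the lost end, encodes a secreted antagonist of bone morphogenetic protein and Wnt signalling. Its signal was -1.54, -1.37, -1.31 and -1.37 in the Ts1Cje replicates, against -1.69, -1.48, -1.85 and -1.53 in the wild-type replicates. Ts1Cje replicates 2, 3 and 4 lay above every wild-type array, at a log2 fold change of 0.24 (SE 0.09, limma adjusted p = 0.526), and the second Sostdc1 probe differed by 0.20.

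Otx2, on chromosome 14, encodes the homeodomain factor needed to form and keep the choroid plexus epithelium. Its signal was -3.29, -4.19, -3.44 and -3.84 in the Ts1Cje replicates, against -2.68, -3.68, -2.51 and -2.79 in the wild-type replicates. Wild-type replicates 1, 3 and 4 lay above every Ts1Cje array, and wild-type replicate 2 lay among the Ts1Cje values. The means were -3.69 ± 0.40 in Ts1Cje and -2.92 ± 0.52 in wild type (SD, n = 4 each). The log2 fold change was -0.77 (SE 0.29, 95% interval -1.43 to -0.12), or 0.586-fold, opposite in sign to those of Clic6 and Kcne2, and was not past the threshold (limma adjusted p = 0.509). It stood at -0.56 within slide row 1 and at -0.99 within slide row 2, and at -0.33 with normexp.

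Beside Otx2 stand the 7 listed markers of the ependyma, the ciliated lining of the ventricles. Of these, 6 had negative log2 fold changes and 1 a positive one, with a median of -0.23, and 0 were called. The summed linear signal of the 7 was 8.29 to 10.2 times the 75th percentile in Ts1Cje and 9.29 to 11.9 times in wild type. Tmem212 stood at -0.73 (SE 0.15, limma adjusted p = 0.181) and Ccdc153, a coiled-coil gene of ciliated cells, at -0.51 (SE 0.14, limma adjusted p = 0.341). The part of ependymal RNA in the Otx2 difference was not tested.

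Enpp2, on chromosome 15, encodes autotaxin, the secreted enzyme that makes lysophosphatidic acid, and is also expressed by oligodendrocytes. Its signal was 3.89, 4.34, 4.31 and 4.40 in the Ts1Cje replicates, against 4.29, 4.25, 4.36 and 4.44 in the wild-type replicates. Only Ts1Cje replicate 1 lay outside the wild-type range, and the log2 fold change was -0.10 (SE 0.11, limma adjusted p = 0.804), or 0.014 without that array. Of the 6 listed oligodendrocyte genes, 3 had positive and 3 negative log2 fold changes, 0 were called and the median was -0.02. Their summed signal was 221 to 256 times the 75th percentile in Ts1Cje and 226 to 248 times in wild type. Mbp, which encodes myelin basic protein, stood at -0.27 (SE 0.10, limma adjusted p = 0.496) and Mobp, another myelin gene, at 0.62 (SE 0.35, limma adjusted p = 0.647). The share of Enpp2 signal that came from oligodendrocytes was not tested.

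**Figure D2:**
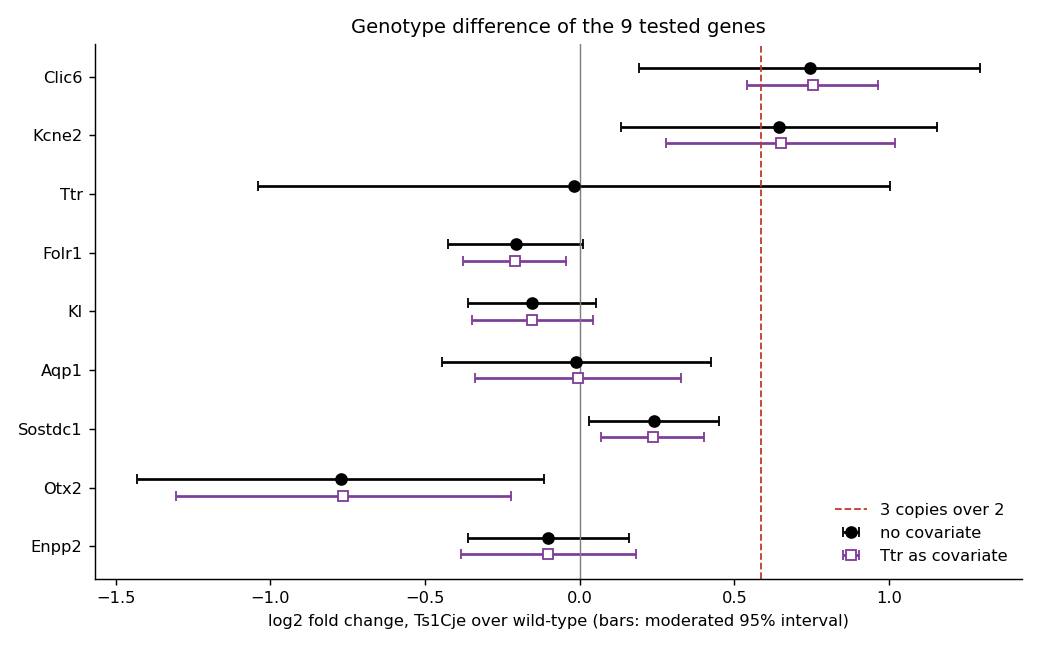
Log2 fold change of Ts1Cje over wild type (horizontal axis) for the 9 tested choroid plexus genes, with 95% intervals from limma, without a covariate (filled circles) and with Ttr as a covariate (open squares). The dashed line marks 3 copies over 2. The interval of Clic6 lies above 0 and holds the dashed line in both fits, and that of Otx2 lies below 0 in both. Kcne2 was kept through its Ts1Cje arrays, with 3 of 4 wild-type arrays above background.

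The next question was whether Clic6 and Kcne2 stand above the 2-copy markers on the same array, since those markers were chosen to follow plexus tissue carried along, although Folr1, Sostdc1 and Enpp2 did not vary with Ttr. The mean of the 7 tested 2-copy members was -0.81, -0.95, -0.90 and -0.81 in the Ts1Cje replicates, against -0.84, -0.98, -0.48 and -0.59 in the wild-type replicates. The group means were -0.87 in Ts1Cje and -0.72 in wild type, a difference of -0.15, and the arrays overlapped. Wild-type replicates 3 and 4, high for Ttr, were also high for this mean. Ttr is itself part of the mean and had the largest SD of the 7 genes over the 8 arrays (0.67). The mean is therefore not independent of Ttr.

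Clic6 minus that mean was -0.73, -1.06, -1.04 and -0.98 on the Ts1Cje arrays, against -1.79, -2.21, -1.46 and -1.91 on the wild-type arrays. Each Ts1Cje value was above each wild-type value, that of wild-type replicate 3 included, and the group means differed by 0.89. Of all 24025 features set against the same mean, 2.63% lay higher on every Ts1Cje array. Kcne2 minus the same mean was -3.47, -3.16, -3.50 and -2.92 on the Ts1Cje arrays, against -4.12, -4.21, -3.73 and -4.15 on the wild-type arrays. The genotypes did not overlap and the group means differed by 0.79, for a probe that 1 wild-type array did not show above background. With normexp the differences were 0.54 for Clic6 and 0.32 for Kcne2. Since the mean is a score over chosen genes, it is given with no test.

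Against single 2-copy genes, Clic6 was higher in Ts1Cje by 0.50 (against Sostdc1) to 1.52 (against Otx2), without overlap between genotypes for 4 of the 7, namely Ttr, Kl, Aqp1 and Otx2. Kcne2 was higher by 0.40 to 1.42 against the same 2 genes, without overlap for 3 of the 7, namely Kl, Aqp1 and Otx2. The Kcne2 values include a wild-type array not above background, since only 3 of the 4 were. Of all features, the share that lay higher on every Ts1Cje array in the same way was 0.0125% against Ttr, 4.24% against Kl, 0.166% against Aqp1 and 3.66% against Otx2. For the 7 genes these shares ran up to 9.56%, against Folr1. Clic6 minus Ttr was -2.97, -2.84, -2.36 and -2.67 on the Ts1Cje arrays, against -3.12, -3.02, -3.94 and -3.81 on the wild-type arrays. The highest wild-type array lay just under the lowest Ts1Cje array. Kcne2 minus Ttr overlapped between genotypes, at -5.70 to -4.61 in Ts1Cje and -6.21 to -5.02 in wild type, with means 0.66 apart.

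**Figure D3:**
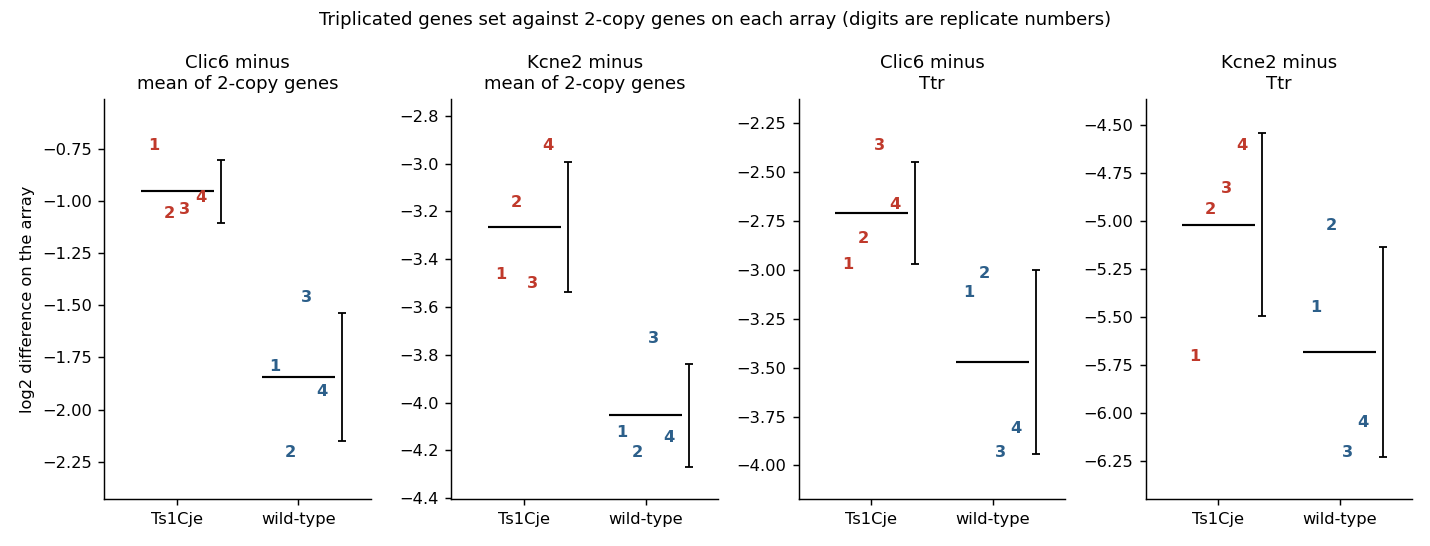
Log2 difference on each array between a triplicated gene and the mean of the 7 tested 2-copy genes (left 2 panels) or Ttr (right 2 panels), for Ts1Cje and wild-type mice. Digits give replicate numbers, horizontal lines the group mean and bars 1 SD on either side (n = 4). The genotypes do not overlap in the first 3 panels and overlap for Kcne2 minus Ttr.

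The same question was put to limma by adding a marker level as a covariate of each array. With the mean of the 2-copy members as covariate, Clic6 was called at a log2 fold change of 1.06 (SE 0.12, 95% interval 0.78 to 1.33, limma adjusted p = 0.0365). Kcne2 stood at 0.89 (SE 0.16, 95% interval 0.51 to 1.27, limma adjusted p = 0.202). The Clic6 interval lay wholly above 0.58, the log2 of 3 copies over 2, whereas the Kcne2 interval held it. In that fit 28 of 24025 features were called (0.117%). Otx2, with its log2 fold change of -0.77, is part of this covariate, and without it the values were 0.83 for Clic6 (SE 0.17, limma adjusted p = 0.232) and 0.73 for Kcne2 (SE 0.12, limma adjusted p = 0.120).

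With Ttr alone as covariate, a choice made after seeing the values, Clic6 was called at 0.75 (SE 0.09, 95% interval 0.54 to 0.96, limma adjusted p = 0.0350), or 1.69-fold. The estimate is close to that without a covariate, and its SE is smaller. Kcne2 stood at 0.65 (SE 0.16, 95% interval 0.28 to 1.02, limma adjusted p = 0.295). In that fit 59 of 24025 features were called (0.246%), and of the 8 members other than Ttr 1 was. Otx2 stood at -0.76 (SE 0.23, limma adjusted p = 0.392), Folr1 at -0.21 (SE 0.07, limma adjusted p = 0.434) and Sostdc1 at 0.24 (SE 0.07, limma adjusted p = 0.392). With the mean of 21 other choroid plexus genes as covariate, Clic6 stood at 0.82 (SE 0.18, limma adjusted p = 0.267) and Kcne2 at 0.69 (SE 0.20, limma adjusted p = 0.367). Otx2 stood at -0.68 (SE 0.20, limma adjusted p = 0.375) in that fit. Of the 21 genes, Slc13a4 (SD 1.02) and Wfikkn2 (SD 0.83) varied most among the wild-type arrays. Both were highest in wild-type replicates 1 and 3, whereas Ttr was highest in 3 and 4. Clic6, not called without a covariate, was thus called with 2 of the 4: with Ttr, chosen after seeing the values, and with the 2-copy mean only while Otx2 was part of it.

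**Figure D4:**
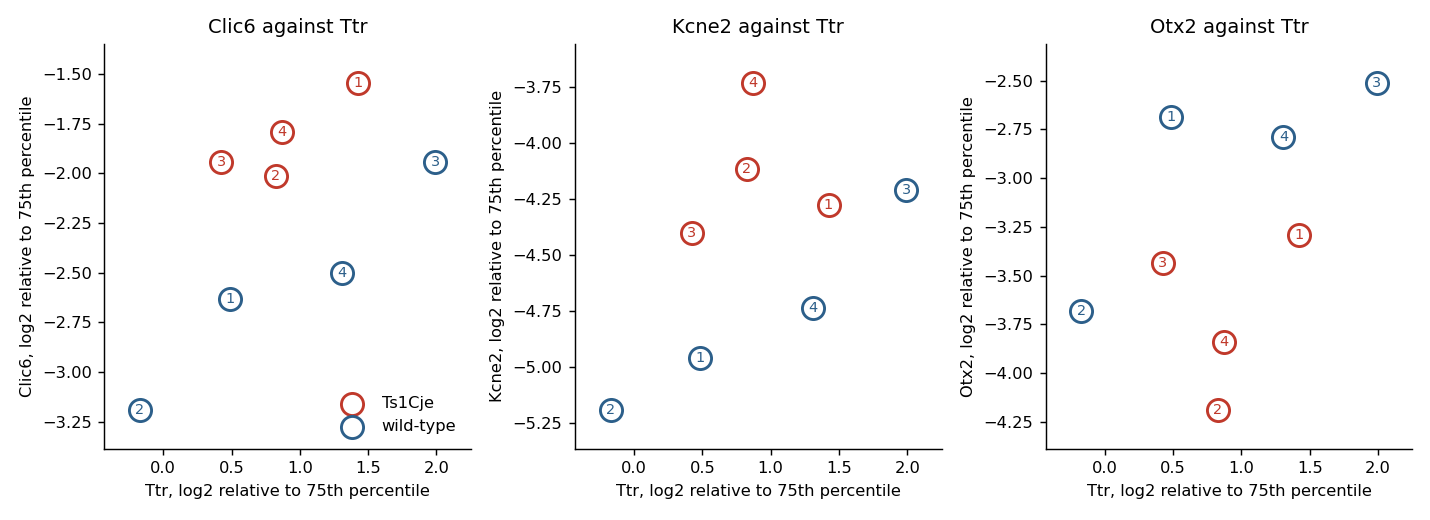
Log2 signal of Clic6, Kcne2 and Otx2 (vertical axes) against that of Ttr (horizontal axes) on each array, whose 75th percentile is set to 0, with replicate numbers in the circles. Ts1Cje replicate 3 and wild-type replicate 1 have like Ttr, as have Ts1Cje replicate 1 and wild-type replicate 4. In both pairs the Ts1Cje array lies higher for Clic6 and Kcne2. The other arrays have no counterpart as near in Ttr. Wild-type replicate 3 combines the highest Ttr with the highest wild-type Clic6 and Kcne2.

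The slide held replicates 1 and 2 of both genotypes in row 1 and replicates 3 and 4 in row 2. Within row 1 the difference was 1.13 for Clic6 and 0.88 for Kcne2. Within row 2 it was 0.36 for Clic6 and 0.41 for Kcne2. Ttr differed by 0.97 within row 1 and by -1.002 within row 2, so that the row with the larger Clic6 and Kcne2 differences was also the one with more Ttr in Ts1Cje. With slide row as a block the limma adjusted p was 0.431 for Clic6 and 0.417 for Kcne2. Each slide column held 1 genotype, and the effects of the 2 cannot be told apart.

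Among the genes of the triplicated segment, Clic6 and Kcne2 had large but imprecise differences. The segment from Sod1 to the end of chromosome 16 had 64 tested genes with a median log2 fold change of 0.49, or 1.40-fold, and 26 of them (40.6%) were called higher in Ts1Cje. Clic6 ranked 3 and Kcne2 ranked 13 by fold change among the 64. Their SEs of 0.24 and 0.22 ranked 3 and 4, against a median of 0.07. Kcne2 was the dimmest probe of the 64 and 12 were dimmer than Clic6, as the spots show them.

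In gene order, the stretch around them reads Slc5a3, Mrps6, Kcne2, Smim11, Fam243, Kcne1, Rcan1, Clic6 and Runx1. Of the 8 listed here (all but Fam243), 6 were tested, Clic6 and Kcne2 included. All 6 had positive log2 fold changes with a median of 0.53, and 2 were called. Apart from Clic6 and Kcne2, the tested genes lay between 0.33 (Slc5a3) and 0.54 (Rcan1). Smim11, which encodes a small membrane protein, rose in Ts1Cje, with 3.27 to 3.49 in Ts1Cje, against 2.78 to 2.91 in wild type (log2 fold change 0.52, SE 0.06, limma adjusted p = 0.0186). Rcan1, which encodes a regulator of the phosphatase calcineurin, also rose, with 1.61 to 1.70 in Ts1Cje, against 1.03 to 1.22 in wild type (log2 fold change 0.54, SE 0.06, limma adjusted p = 0.0105). Mrps6, a mitochondrial ribosomal protein gene, stood at 0.49 (SE 0.09, limma adjusted p = 0.101). Smim11 was not called in 9 of 18 alternative settings and Rcan1 in 7 of 18, among them the array median as centre. Differences in fold between these neighbours were not tested. Kcne1 and Runx1 were not above background on all arrays of either genotype.

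The paralogs of Clic6 outside the segment were near 0. Of 4 tested, 3 had positive and 1 negative log2 fold changes, the median was 0.02 and 0 were called. Clic4 stood at 0.17 (SE 0.08) and Clic5 at -0.13 (SE 0.20). Clic1 stood at 0.03 (SE 0.12) and Clic3 at 0.0068 (SE 0.09), or at -0.018 and -0.043 with the array median as centre. Of the relatives of Kcne2, 3 were tested, with a median of -0.02 and 0 called. Kcne3 stood at 0.41 (SE 0.50), or at -0.15 without Ts1Cje replicate 1. Kcne4 stood at -0.02 (SE 0.24), or at 0.063 with array weights, and Kcne1l at -0.33 (SE 0.19).

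KCNE2 protein works with partner channels and transporters. Of 4 partners tested, 1 had a positive and 3 a negative log2 fold change, with a median of -0.05 and 0 called. The channel genes Kcnq1 and Kcna3 stood at -0.0079 (SE 0.11) and -0.09 (SE 0.15). Slc5a3, the myo-inositol transporter gene that is itself triplicated, stood at 0.33 (SE 0.11, limma adjusted p = 0.440). Slc5a11, a second myo-inositol transporter gene, stood at -0.62 (SE 0.17, limma adjusted p = 0.341), with all Ts1Cje arrays (-3.97 to -3.26) below all wild-type arrays (-3.16 to -2.67), as for 6.12% of all features in either direction.

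Other genes of the choroid plexus, listed apart from the 10 members, showed no common direction. Of 28 listed, 27 were on the array and 21 were tested. Of the 21, 10 had positive and 11 negative log2 fold changes, with a median of -0.02, and 0 were called. The lowest was Steap1 at -0.45 (SE 0.23, limma adjusted p = 0.615). The highest was F5, a 2-copy gene on chromosome 1, at 0.47 (SE 0.16, limma adjusted p = 0.468). Within each genotype F5 put the arrays in the same order as Clic6 did. Its signal was -3.80 to -3.46 in Ts1Cje and -4.55 to -3.79 in wild type. Steap1 and F5 were named after their values were seen. An unadjusted limma p under 0.05 was found for 5 of the 21, against 2097 of all 24025 features. Their summed signal was 34.4 to 41.8 times the 75th percentile in Ts1Cje and 37.1 to 41.6 times in wild type. Calml4, a calmodulin-like gene, stood at -0.28 (SE 0.09, limma adjusted p = 0.425), and Slc31a1, the copper uptake transporter gene, at 0.16 (SE 0.05, limma adjusted p = 0.444). The arrays of the genotypes did not overlap for these 2 genes and for Prlr, the prolactin receptor gene (0.13, SE 0.05), named for that reason after its values were seen. Over all features that share was 6.12%. Cldn2, the claudin of the plexus tight junction, stood above background on 0 arrays with either of its probes, and Lmx1a, Abca4, Col8a1, Krt8 and Drc7 were also not tested. The label of choroid plexus therefore rests on Ttr and the other measured genes, with several defining genes at the level of background.

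Cell types that may lie in the same dissection showed 0 calls in each list. Of 8 fibroblast and meninges genes, 6 had positive and 2 negative log2 fold changes, with a median of 0.11. Their summed signal was 28.5 to 33.2 times the 75th percentile in Ts1Cje and 18.4 to 35.2 times in wild type. Dcn stood at 0.29 (SE 0.18) and Lum at -0.22 (SE 0.15). Of 6 endothelial genes 2 were positive and 4 negative, with a median of -0.02, Cldn5 at 0.15 (SE 0.14) and Cdh5 at -0.10 (SE 0.14). Their summed signal was 20.2 to 24.2 times the 75th percentile in Ts1Cje and 19.1 to 23.3 times in wild type. The part of these cells in the Clic6 and Kcne2 values was not tested.

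For the tissue beside the plexus, 6 thalamus and habenula genes had a median of 0.06, with 4 positive and 2 negative, Prkcd at 0.17 (SE 0.06, limma adjusted p = 0.486) and Tac2 at -0.11 (SE 0.09). The 5 dentate granule cell genes had a median of -0.13, with 1 positive and 4 negative, C1ql2 at -0.25 (SE 0.05, limma adjusted p = 0.148) and Plk5 at -0.37 (SE 0.16). Of 5 CA pyramidal cell genes, Iyd was not tested, and the other 4 had a median of -0.11, with 1 positive and 3 negative. Wfs1 stood at 0.30 (SE 0.07, limma adjusted p = 0.222) and Fibcd1 at -0.19 (SE 0.05, limma adjusted p = 0.321). Summed signals were 8.41 to 8.96 in Ts1Cje and 8.28 to 8.88 in wild type for thalamus and habenula. They were 6.62 to 8.12 in Ts1Cje and 8.18 to 9.52 in wild type for the dentate genes, and 47.3 to 51.8 in Ts1Cje and 46.1 to 49.1 in wild type for the CA genes, all in multiples of the 75th percentile.

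**Figure D5:**
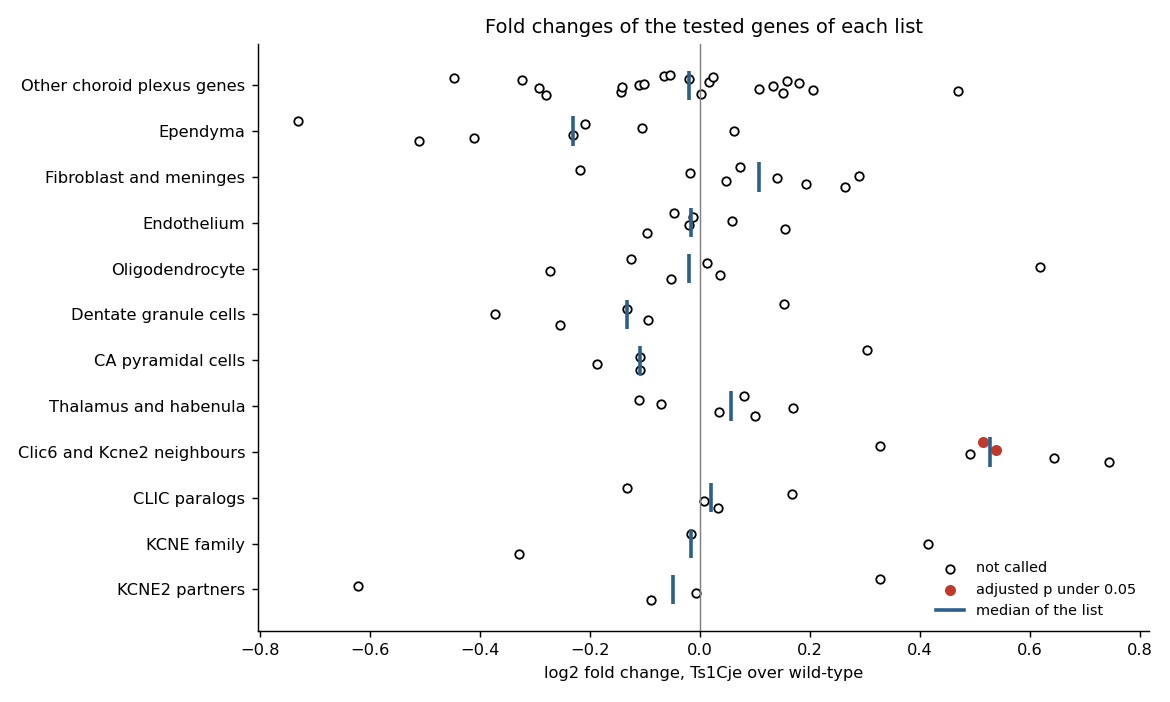
Log2 fold change of Ts1Cje over wild type (horizontal axis) for each tested gene of 12 lists, with filled points for the called genes and a bar at the median of the list. The 2 called genes are Smim11 and Rcan1, in the list of neighbours that also holds Clic6 and Kcne2 themselves. The 6 tested genes of that list lie between 0.33 (Slc5a3) and 0.74 (Clic6).

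The named genes whose signal ran most like the mean of the 2-copy members over the 8 arrays were Mmp16, Flrt2, Crebrf, Wnk4, 4930412C18Rik, Bud13, Prrc1, Ppp1r2, Kcnk2 and Dennd3. They were taken from 4801 genes whose SD over the arrays was at least 0.15, the smallest among the 2-copy members. Pearson's r was 0.961 for Mmp16, a membrane-bound matrix metalloproteinase gene, and 0.908 for Dennd3, the lowest of the 10. None of these 10 is among the 28 other choroid plexus genes. With 8 arrays and 4801 candidates, such values are a description of these arrays only.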

How the data were processed

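RNA of each of the 8 hippocampal samples was labelled with Cy3 and hybridised to its own one-colour Agilent array, per the labels' protocols. The deposited files hold linear spot intensity, background-corrected within the array by Agilent Feature Extraction 10.10.1.1 and not normalized between arrays, per the file headers, for probes designed on build mm9. From these, outlier spots and control spots were left out, and the log2 intensity was averaged per probe and centred on the array's 75th percentile (55681 probes). A probe was kept if 1 genotype or both had it well above background on all 4 arrays (32596 probes), and the brightest stood for its gene. RefSeq accessions were named through a GRCm38.p6 table, used for names, gene order and RefSeq promoter sequences only, since it differs from the build of the probes.

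The comparison used lmFit and eBayes of limma 3.58.1 (R 4.3.3), two-sided, with no block and with Benjamini-Hochberg adjustment over 24025 features. Of the 4 covariates, 2 (Ttr, and the 2-copy mean without Otx2) were chosen after seeing the data. P-values measure the spread between samples labelled as separate replicates. On simulated data for this comparison, with 24025 features, the fit recovered 68% of 100 features changed 1.5-fold and 92% of 100 changed 2-fold, with 9 false calls among 169. The changed features were drawn at random and given independent noise. The SEs of Clic6 (0.24) and Kcne2 (0.22) were well above the median of 0.07 in the triplicated segment, so these shares do not describe those 2 genes. The members and lists were chosen with earlier results of these data known. Named were all 10 members and the 10 genes most like the 2-copy mean. All tested genes of the neighbour, paralog, KCNE family and partner lists were also named. Of each other list, the called genes or else the 2 of smallest p were named. Prlr, F5, Steap1, Slc13a4 and Wfikkn2 were named beyond this rule, after their values were seen. Alternatives were normexp on the median signals (offset 50), centring on the median or quantile normalization, other probe filters and gene summaries, another variance prior, array weights, blocks for replicate number and slide row, the covariates, and each array left out in turn. All arrays were on 1 slide and 1 scan, and 4 arrays per genotype limit the precision.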

Additional observations from a re-analysis of the deposited data

Results flagged for a closer look

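Among 84 sets of 4 arrays (the named genes and the scores per array, in each genotype), Dixon's ratio of gap to range set 1 array apart in 7, where 4.2 are expected by chance. Among the choroid plexus genes this was Folr1, at -1.26 in Ts1Cje replicate 3, above the other Ts1Cje arrays and within the wild-type range. Among the relatives of the triplicated genes, Kcne3 stood at -1.44 in Ts1Cje replicate 1, against -3.97 to -3.55 on the other Ts1Cje arrays, Clic1 at 1.81 in Ts1Cje replicate 1 and Clic3 at -4.15 in wild-type replicate 4. In the cell type lists, Plk5 stood at 1.36 in Ts1Cje replicate 1 and at 1.78 in wild-type replicate 3, both below the rest of their genotype, and Mobp at 5.32 in wild-type replicate 1, above the rest.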

How the results depend on the processing

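Over the alternatives that gave a value, the log2 fold changes of Clic6 (0.46 to 1.06) and Kcne2 (0.24 to 0.89) stayed above 0 and that of Otx2 (-1.03 to -0.33) below 0. Clic6 passed the threshold with the 2-copy mean (1.06) and with Ttr (0.75) as covariate and in no other setting, and Kcne2 and Otx2 in none. Kcne2 and Kcne4 could not be tested when probes had to be above background on all 8 arrays. Leaving out 1 array gave 0.54 (without wild-type replicate 2) to 0.95 (without wild-type replicate 3) for Clic6, 0.51 to 0.83 for Kcne2 and -1.03 to -0.61 for Otx2. Clic6 minus the 2-copy mean was 0.77 to 1.02 and Kcne2 minus it 0.68 to 0.90 with 1 array left out, or 0.54 and 0.32 with normexp. The mean of the 2-copy members itself differed by -0.23 to -0.07. The number of 2-copy members called was 0 throughout.

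The number of all features called was 25 with the array median as centre, 23 with no filter on dim probes, 71 with a trended and robust prior, 84 with array weights, and 4 (without Ts1Cje replicate 4) to 44 (without wild-type replicate 3) with 1 array left out. It was 24 without wild-type replicate 2 or 4, 25 without Ts1Cje replicate 3 and 17 without Ts1Cje replicate 2. Smim11 lost its call with the array median as centre, with no filter and without wild-type replicate 2, 3 or 4 or Ts1Cje replicate 2, 3 or 4. Rcan1 lost it with the array median as centre and without wild-type replicate 2 or 4 or Ts1Cje replicate 2, 3 or 4. Mrps6 passed with the trended prior and with slide row as a block.

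Signs turned for values near 0, and the cause was not tested. Array weights gave 0.012 for Ttr, 0.098 for Aqp1, 0.017 for Cdh5, -0.035 for Clic1, -0.051 for Clic3 and 0.063 for Kcne4. The mean of the other choroid plexus genes as covariate gave 0.083 for Ttr and 0.013 for Aqp1. The array median as centre gave -0.018 for Clic1 and -0.043 for Clic3. Clic3 stood at -0.027 with normexp and -0.045 with quantile normalization, and Kcne3 at -0.17 with the mean over its probes. With 1 array left out, the ranges were -0.38 to 0.35 for Ttr, -0.13 to 0.15 for Aqp1, -0.16 to 0.014 for Enpp2, -0.19 to 0.029 for Cdh5, -0.086 to 0.096 for Clic1, -0.036 to 0.074 for Clic3, -0.25 to 0.0061 for Clic5, -0.15 to 0.69 for Kcne3, -0.18 to 0.17 for Kcne4, -0.087 to 0.044 for Kcnq1 and -0.19 to 0.021 for Kcna3.

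With the replicate number as a block, 1 feature was called in all, and Smim11 and Rcan1 lost their calls. Clic6 stood at 0.74 (limma adjusted p = 0.375), Kcne2 at 0.64 (0.432) and Otx2 at -0.77 (0.161). Deviations of same-numbered arrays from their group means correlated at 0.237, 0.194, 0.106 and 0.050 across features, and Ts1Cje replicate 3 correlated best with wild-type replicate 4 (0.141). The series description gives 4 pairs of littermates, no label ties equal numbers to them, and the numbers were not taken as pairs.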
